A study of Homo sapiens with 4 samples.

Results

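The miR-99/100 and miR-125 families were followed across 4 small RNA libraries of human hepatoma cells. They were taken by name as 6 mature miRNAs, hsa-miR-99a, hsa-miR-99b, hsa-miR-100, hsa-miR-125a-5p, hsa-miR-125a-3p and hsa-miR-125b, of the 1733 miRNAs counted in every library. The libraries came from Hep3B and Huh7, which are human hepatoma cell lines (HCC cells), and from Hep3B-C and Huh7-C, the stem-like hepatic cancer stem cells (HCSCs) that were cultured from them. Neither a treatment nor a time point is given in the labels, and each of the 4 conditions had 1 library with no replicates. Every test between a pair of libraries therefore compares those libraries and covers counting noise only, not the variation between cultures.

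A miRNA is a short RNA that guides the silencing machinery to messenger RNAs, mainly by its seed, the bases 2 to 8 from the 5′ end. Both families are ancient, and in vertebrates their genes sit together with a let-7 gene in clusters that exist in several copies. Members of the miR-99/100 family are known to repress MTOR, a growth kinase, and the miR-125 family descends from the same ancestor as the worm timing RNA lin-4. A hairpin precursor gives 1 abundant mature arm and a partner arm that is mostly degraded, marked by an asterisk (for MIR125A, the arms are named 5p and 3p).

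The sequences of the 6 members are shown because the copies can be told apart only where their bases differ. They are the RefSeq mature sequences (GRCh38.p14), in which all 6 names were matched, with the seed in capitals.

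hsa-miR-99a: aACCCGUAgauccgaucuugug
hsa-miR-99b: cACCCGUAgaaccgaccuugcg
hsa-miR-100: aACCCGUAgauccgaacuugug
hsa-miR-125a-5p: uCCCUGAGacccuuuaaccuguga
hsa-miR-125b: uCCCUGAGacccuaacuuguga
hsa-miR-125a-3p: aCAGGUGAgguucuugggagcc

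The members of the miR-99/100 family shared the seed ACCCGUA, and hsa-miR-125a-5p and hsa-miR-125b shared the seed CCCUGAG. The arm hsa-miR-125a-3p had a seed of its own, CAGGUGA. Positions are counted from 1 at the 5′ end, with the base of the first miRNA before the position and that of the other after it. Between hsa-miR-99a and hsa-miR-100 there was 1 difference (U16A), and between hsa-miR-99a and hsa-miR-99b there were 4 (A1C, U11A, U16C and U21C). The first 13 bases of hsa-miR-125a-5p and hsa-miR-125b were identical. Among the other miRNAs of the reference table, hsa-miR-4319 also carried the miR-125 seed, and it had 0 counts in all 4 libraries.

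The 3 copies of the cluster were placed on the GENCODE release 29 annotation (GRCh38), and each of their 9 genes lay inside a host gene on its strand, in introns of at least 1 of its transcripts and in no exon of them. On chromosome 21, MIR99A (chr21:16539089-16539169), MIRLET7C and MIR125B2 (chr21:16590237-16590325) lay in MIR99AHG, a long non-coding RNA. On chromosome 19, MIR99B (chr19:51692612-51692681), MIRLET7E and MIR125A (chr19:51693254-51693339) lay in SPACA6, a protein-coding gene for a sperm membrane protein, where 1 of 14 transcripts spanned them. On chromosome 11, MIR100 (chr11:122152229-122152308), MIRLET7A2 and MIR125B1 (chr11:122099757-122099844) lay on the minus strand in MIR100HG, another long non-coding RNA. The chromosome 19 copy was compact, with 104 and 389 bases between its genes. On chromosomes 21 and 11, the miR-125b gene lay 50325 and 46677 bases from the let-7 gene.

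Since MIR125B1 and MIR125B2 give the same mature hsa-miR-125b, its counts cannot be assigned to chromosome 11 or 21. Their partner arms differ and can be assigned. These arms are shown because the comparison of both copies rests on them, with the seed in capitals.

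hsa-miR-125b-1* (MIR125B1, chromosome 11): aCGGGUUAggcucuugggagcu
hsa-miR-125b-2* (MIR125B2, chromosome 21): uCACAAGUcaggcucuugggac

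In the hairpin of MIR125B1 (chr11:122099757-122099844, minus strand, GRCh38.p14), shown with both arms in capitals, hsa-miR-125b is the left arm and hsa-miR-125b-1* the right arm.

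MIR125B1 hairpin: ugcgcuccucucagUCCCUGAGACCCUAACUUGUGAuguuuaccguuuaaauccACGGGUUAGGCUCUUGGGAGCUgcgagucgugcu

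Levels are given as TPM, the count of a miRNA divided by the total reads of its library and multiplied by 1000000. Counts of miRNAs were 10.4% of the total reads in Hep3B but 35.2% in Hep3B-C, and 54.1% in Huh7 but 37.8% in Huh7-C, and they summed to between 1739278 (Hep3B) and 5741567 (Huh7). The share of miRNAs was lowest in Hep3B, and a level per total reads and a level per miRNA counts can move in opposite directions. Over the miRNAs that reached 10 counts in a library of the pair, the median log2 fold-change was 1.42 per total reads and -0.34 per miRNA counts for Hep3B-C over Hep3B, and on these scales -0.66 and -0.15 for Huh7-C over Huh7. For Huh7 over Hep3B these medians were 1.59 and -0.79, and for Huh7-C over Hep3B-C -0.82 and -0.92. The value on each scale is therefore given below, and shares within a library, which need no library size, are given first. The level that 3 counts stand for was between 0.179 TPM (Hep3B) and 0.282 TPM (Huh7). The hepatocyte miRNA hsa-miR-122 also set the libraries apart, at 23.7 TPM in Hep3B, 9708 TPM in Hep3B-C, 46077 TPM in Huh7 and 13515 TPM in Huh7-C. Of the miRNA counts it held 0.0228%, 2.76%, 8.52% and 3.58% in that order. Its partner arm hsa-miR-122* also rose in the Hep3B pair, from 0 to 83 counts. The hepatocyte miRNAs hsa-miR-192 (10.3% and 7.12%) and hsa-miR-194 (0.292% and 0.214%) held less of the miRNA counts in Hep3B-C than in Hep3B. In the Huh7 pair hsa-miR-194 held 0.556% and 0.602%. The part of hsa-miR-122 in the results below was not tested.

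Of the 6 members, hsa-miR-99b of chromosome 19 was the most abundant in every library. It stood at 2310 TPM in Hep3B (38773 counts), 2688 TPM in Hep3B-C (41499 counts), 2034 TPM in Huh7 (21606 counts) and 1030 TPM in Huh7-C (11036 counts). Per total reads its levels spanned a narrow range with Huh7-C the lowest, but of the miRNA counts it held 2.23% in Hep3B, 0.764% in Hep3B-C, and 0.376% in Huh7 against 0.273% in Huh7-C, with Hep3B set apart as high. Its close relative hsa-miR-99a, from chromosome 21, was at 21.5 TPM in Hep3B (361 counts) and 77.1 TPM in Hep3B-C (1191 counts), but at 1.13 TPM in Huh7 (12 counts) and 1.40 TPM in Huh7-C (15 counts). It was high in the Hep3B pair and close to the limit of the depth in the Huh7 pair. The opposite was seen for hsa-miR-100 of chromosome 11, which was at 77.9 TPM in Hep3B (1307 counts), 24.5 TPM in Hep3B-C (378 counts), 762 TPM in Huh7 (8097 counts) and 362 TPM in Huh7-C (3876 counts). Both Huh7 libraries lay above both Hep3B libraries for this miRNA.

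Levels of the miR-125 family were closer to each other. For hsa-miR-125a-5p they were 40.7 TPM in Hep3B (683 counts), 104 TPM in Hep3B-C (1610 counts), 175 TPM in Huh7 (1854 counts) and 53.4 TPM in Huh7-C (572 counts). For hsa-miR-125b they were 22.7 TPM in Hep3B (381 counts), 98.2 TPM in Hep3B-C (1517 counts), 77.1 TPM in Huh7 (819 counts) and 39.4 TPM in Huh7-C (422 counts). Neither was separated by parent line or by cell state per total reads. As shares of the miRNA counts, however, hsa-miR-125a-5p was higher in both HCC libraries (0.0393% in Hep3B and 0.0323% in Huh7) than in both HCSC libraries (0.0296% in Hep3B-C and 0.0141% in Huh7-C). The counting intervals of Huh7 and Hep3B-C overlapped on that scale. With another scaling, DESeq2 size factors, hsa-miR-125a-5p was higher in Hep3B-C than in Hep3B, at a log2 fold-change of 0.18. As a share of the miRNA counts, hsa-miR-125b was higher in both Hep3B libraries (0.0219% and 0.0279%) than in Huh7 (0.0143%) and Huh7-C (0.0104%). The arm hsa-miR-125a-3p was low throughout, at 5.36 TPM in Hep3B (90 counts), 6.54 TPM in Hep3B-C (101 counts), 9.60 TPM in Huh7 (102 counts) and 2.61 TPM in Huh7-C (28 counts).

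**Figure D1:**
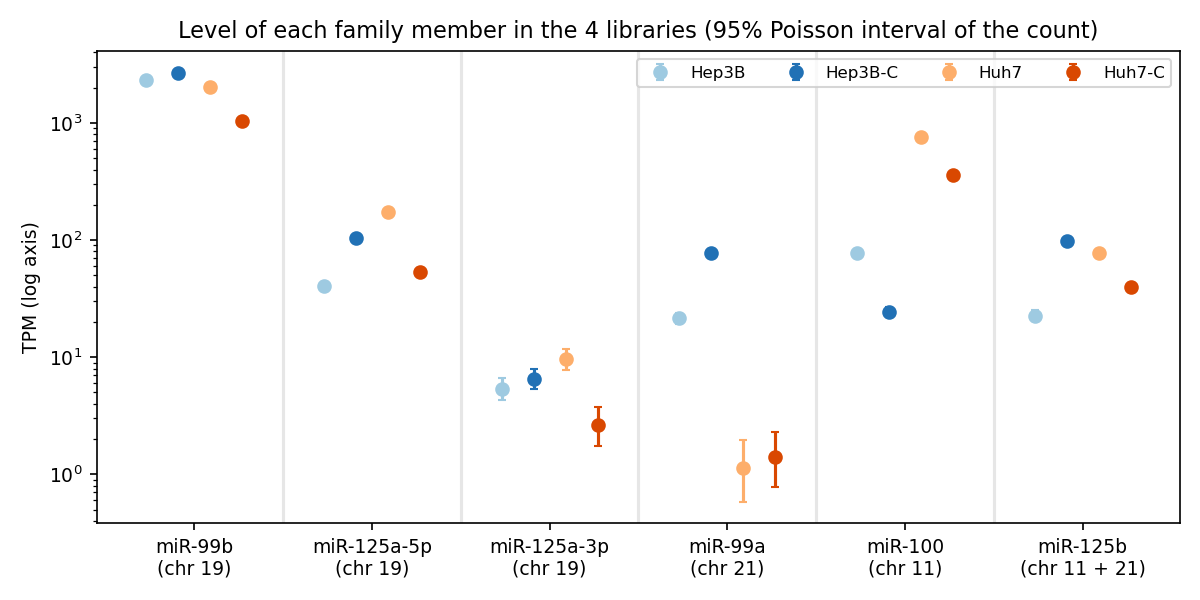
Level of each of the 6 members in the 4 libraries, in TPM on a log axis, with the chromosome of its gene under the name. Points are single libraries and bars are 95% Poisson intervals of the count; hsa-miR-99b lies above the other members in every library, and hsa-miR-99a (1.13 and 1.40 TPM) and hsa-miR-100 (762 and 362 TPM) lie far apart in Huh7 and Huh7-C.

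Behind hsa-miR-99b, the order of the members differed between the libraries. In Hep3B it ran from hsa-miR-100 through hsa-miR-125a-5p, hsa-miR-125b and hsa-miR-99a to hsa-miR-125a-3p, and in Hep3B-C from hsa-miR-125a-5p through hsa-miR-125b, hsa-miR-99a and hsa-miR-100 to hsa-miR-125a-3p. In Huh7 and Huh7-C it ran from hsa-miR-100 through hsa-miR-125a-5p, hsa-miR-125b and hsa-miR-125a-3p to hsa-miR-99a. Neighbours whose 95% Poisson intervals overlapped were hsa-miR-125b and hsa-miR-99a in Hep3B, hsa-miR-125a-5p and hsa-miR-125b in Hep3B-C, and hsa-miR-125a-3p and hsa-miR-99a in Huh7-C. Together the 6 members held 2.39% of the miRNA counts in Hep3B and 0.853% in Hep3B-C, against 0.566% in Huh7 and 0.394% in Huh7-C.

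The first comparison of the copies was made within each library, by the share of counts that each copy supplied. Of the counts of the miR-99/100 family, chromosome 19 (hsa-miR-99b) supplied 95.9% in Hep3B (95% Clopper-Pearson interval 95.7% to 96.1%) and 96.4% in Hep3B-C (96.2% to 96.5%). It supplied 72.7% in Huh7 (72.2% to 73.2%) and 73.9% in Huh7-C (73.2% to 74.6%). The family's share was thus set apart by the parent line, and by little between the libraries of a line. Chromosome 11 (hsa-miR-100) supplied most of what was left in Huh7 (27.2%) and Huh7-C (26.0%), against 3.23% in Hep3B and 0.878% in Hep3B-C. Chromosome 21 (hsa-miR-99a) supplied 0.893% in Hep3B and 2.77% in Hep3B-C, but 0.0404% in Huh7 and 0.100% in Huh7-C.

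Between the near-identical pair, hsa-miR-99a made up 21.6% of the summed counts of hsa-miR-99a and hsa-miR-100 in Hep3B (19.7% to 23.7%) and 75.9% in Hep3B-C (73.7% to 78.0%). It made up 0.148% in Huh7 (0.0765% to 0.258%) and 0.386% in Huh7-C (0.216% to 0.635%). The chromosome 11 copy was ahead in Hep3B, Huh7 and Huh7-C, and the chromosome 21 copy in Hep3B-C. How reads with a mismatch were counted is not given in the sources used here, and with U16A as the only difference, reads of the pair could be exchanged. If a constant share of hsa-miR-100 reads had been counted as hsa-miR-99a, the Huh7 library would bound it at 0.258%, the upper end of its interval. The reverse, hsa-miR-99a reads counted as hsa-miR-100, is not bounded in this way. An exchange of reads was not tested, also not in Hep3B-C, where hsa-miR-99a was ahead.

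For the miR-125 family, hsa-miR-125a-5p of chromosome 19 made up 64.2% of the summed counts of hsa-miR-125a-5p and hsa-miR-125b in Hep3B (61.2% to 67.1%) and 51.5% in Hep3B-C (49.7% to 53.3%). In Huh7 it made up 69.4% (67.6% to 71.1%), and in Huh7-C 57.5% (54.4% to 60.6%). The share was lower in the HCSC library of either line, with intervals that did not overlap. On a log2 scale, the ratio of hsa-miR-125b to hsa-miR-125a-5p was higher by 0.76 in Hep3B-C than in Hep3B (95% interval 0.55 to 0.96) and by 0.74 in Huh7-C than in Huh7 (0.52 to 0.96). These intervals and those of all ratios below are Wald intervals of a log odds ratio, for counting error only.

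The partner arms of miR-125b came mostly from chromosome 21 in the Hep3B pair and mostly from chromosome 11 in Huh7. In Huh7-C neither copy was clearly ahead. In Hep3B 372 counts of the chromosome 21 arm hsa-miR-125b-2* stood against 3 of the chromosome 11 arm hsa-miR-125b-1*, and in Hep3B-C 1025 stood against 3. In Huh7 there were 20 against 65, and in Huh7-C 38 against 31. Chromosome 21 therefore supplied 99.2% of these arms in Hep3B (97.7% to 99.8%) and 99.7% in Hep3B-C (99.1% to 99.9%), but 23.5% in Huh7 (15.0% to 34.0%) and 55.1% in Huh7-C (42.6% to 67.1%). A share of partner arms is not a share of mature hsa-miR-125b, since each hairpin can keep its partner arm at its own rate.

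Partner arms made up a larger part of the miR-125b products in the Hep3B libraries than in the Huh7 libraries. Both partner arms together were 49.6% of themselves and hsa-miR-125b in Hep3B (46.0% to 53.2%) and 40.4% in Hep3B-C (38.5% to 42.3%). They were 9.40% in Huh7 (7.58% to 11.5%) and 14.1% in Huh7-C (11.1% to 17.4%). In the hairpins of chromosome 19, the partner arm was the smaller product in all 4 libraries. There hsa-miR-99b* was between 0.907% and 1.24% of both MIR99B arms, and hsa-miR-125a-3p was 11.6% of both MIR125A arms in Hep3B and between 4.67% and 5.90% in the other 3 libraries. With the partner arms added to the mature arms, the chromosome 19 share of the miR-125 counts was 50.6% in Hep3B and 40.2% in Hep3B-C.

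**Figure D2:**
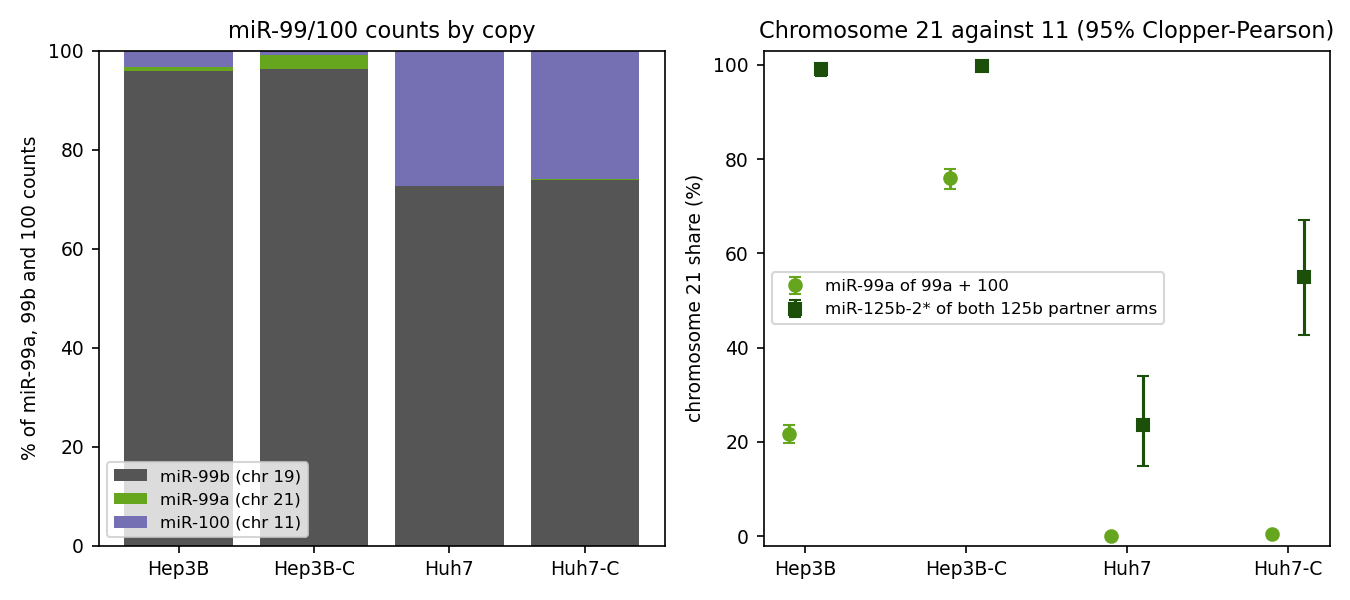
Left, share of the counts of hsa-miR-99b, hsa-miR-99a and hsa-miR-100 in each library, as a percent of their sum. Right, percent of counts from chromosome 21 for hsa-miR-99a of hsa-miR-99a and hsa-miR-100 (circles) and for hsa-miR-125b-2* of both miR-125b partner arms (squares), with 95% Clopper-Pearson intervals; the squares are at 99.2% and 99.7% in the Hep3B pair and at 23.5% and 55.1% in the Huh7 pair.

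The parent lines were then compared, Huh7 with Hep3B and Huh7-C with Hep3B-C, by an exact Poisson test of the counts (Audic and Claverie). A call needed a log2 fold-change of 1 or more in size and a Benjamini-Hochberg adjusted p of 0.01 or less over all miRNAs counted at least once in the libraries compared. All 6 members had at least 12 counts in every library and were tested in each comparison. In Huh7, 3 members were called higher than in Hep3B and 1 lower, where 32.4% and 9.18% of 828 miRNAs were called. In Huh7-C, 1 member was called higher than in Hep3B-C and 4 lower, where 13.6% and 23.0% of 868 miRNAs were called. The 4 comparisons between libraries share libraries and do not test each other.

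Products of the chromosome 21 copy were lower in the Huh7 libraries. For hsa-miR-99a the log2 fold-change of Huh7 over Hep3B was -4.25 per total reads (95% exact interval -5.22 to -3.43, exact Poisson test, adjusted p = 1.73e-59) and -6.63 per miRNA counts. Between Huh7-C and Hep3B-C it was -5.78 per total reads (-6.63 to -5.06, adjusted p = 5.74e-244) and -5.89 per miRNA counts. The neighbouring let-7 of this copy, hsa-let-7c, had 26250 counts in Hep3B and 87854 in Hep3B-C but 118 in Huh7 and 194 in Huh7-C, a log2 fold-change per total reads of -7.14 between the HCC lines (-7.41 to -6.88) and -8.30 between the HCSC lines (-8.51 to -8.09). For hsa-miR-125b-2* these values were -3.56 (-4.29 to -2.91) and -4.23 (-4.73 to -3.76). All 3 were called lower in either comparison, though by different factors, and the ratio of hsa-miR-99a to hsa-let-7c was 0.0138 in Hep3B and 0.102 in Huh7.

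Products of the chromosome 11 copy were higher in the Huh7 libraries. For hsa-miR-100 the log2 fold-change was 3.29 per total reads (3.21 to 3.38) and 0.91 per miRNA counts between Huh7 and Hep3B, and 3.89 (3.73 to 4.04) and 3.78 between Huh7-C and Hep3B-C. It was called higher in both comparisons per total reads, and per miRNA counts in the HCSC comparison. The partner arm hsa-miR-125b-1* gave 5.10 (3.49 to 7.41) and 3.90 (2.22 to 6.25) per total reads, from 3 counts in each Hep3B library. The related hsa-miR-10a and hsa-miR-10b, whose genes lie in HOX clusters on other chromosomes, rose further, hsa-miR-10b from 90 counts in Hep3B to 17763 in Huh7 and from 30 in Hep3B-C to 11705 in Huh7-C.

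Products of the chromosome 19 copy differed in direction among themselves between Huh7 and Hep3B per total reads. For hsa-miR-99b the log2 fold-change of Huh7 over Hep3B was -0.18 per total reads (-0.21 to -0.16), which was not called, and -2.57 per miRNA counts. For hsa-miR-125a-5p it was 2.10 per total reads (1.97 to 2.23), called higher, but -0.28 per miRNA counts. The neighbouring hsa-let-7e was called lower, at -1.11 per total reads and -3.49 per miRNA counts. For hsa-miR-125a-3p it was 0.84 per total reads, which was not called, but -1.54 per miRNA counts. The mature hsa-miR-125b, which chromosomes 11 and 21 both give, was at 1.76 (1.59 to 1.94), called higher, but at -0.62 per miRNA counts. Between Huh7-C and Hep3B-C, where miRNAs held similar shares of the reads, hsa-let-7e (-2.71 per total reads), hsa-miR-99b (-1.38 per total reads), hsa-miR-125a-3p (-1.32) and hsa-miR-125b (-1.32) were called lower and hsa-miR-125a-5p (-0.97) was not. On the scale of miRNA counts they were at -2.82 (hsa-let-7e), -1.49 (hsa-miR-99b), -1.43 (hsa-miR-125a-3p), -1.42 (hsa-miR-125b) and -1.07 (hsa-miR-125a-5p), all of them called lower. The median of miRNAs with at least 10 counts was itself -0.82 per total reads in this comparison. Relative to that median they were at -1.89 (hsa-let-7e), -0.56 (hsa-miR-99b), -0.50 (hsa-miR-125a-3p), -0.50 (hsa-miR-125b) and -0.15 (hsa-miR-125a-5p).

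**Figure D3:**
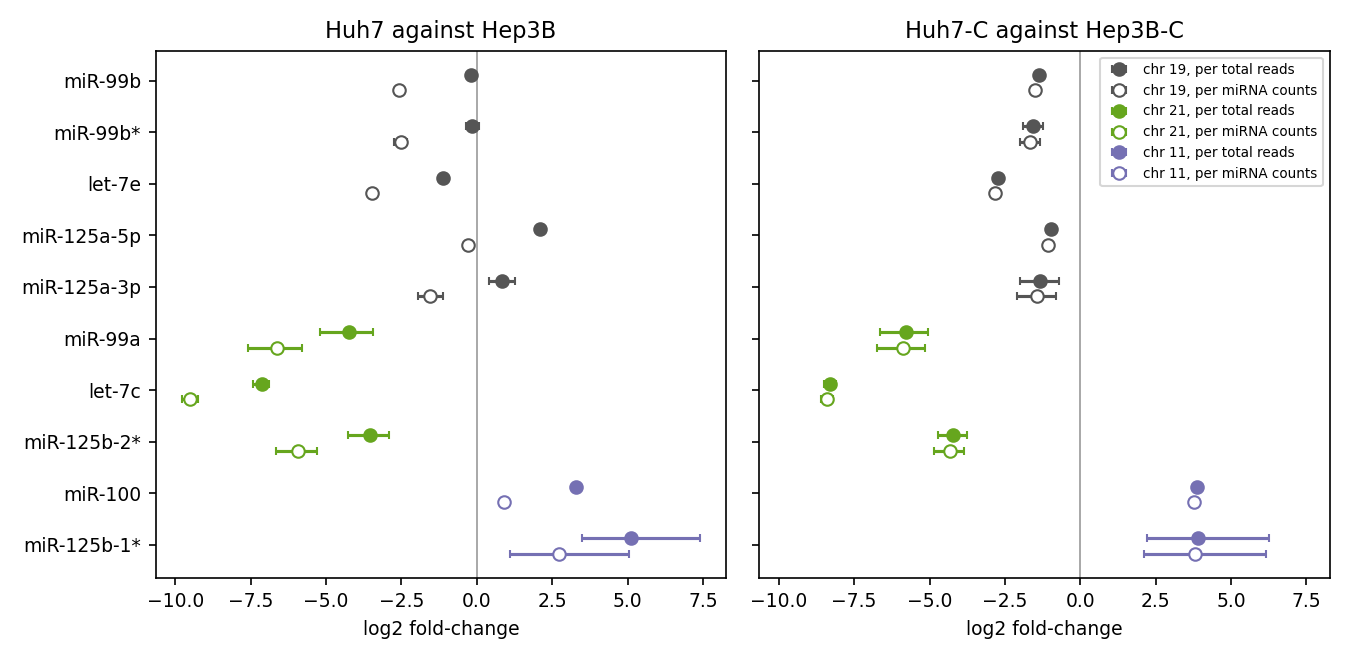
Log2 fold-change of Huh7 over Hep3B (left) and of Huh7-C over Hep3B-C (right) for the members and partners that belong to 1 copy of the cluster, per total reads (filled) and per miRNA counts (open), with 95% exact intervals from the counts. Products of chromosome 21 lie below 0 (hsa-miR-99a at -4.25 and -5.78 per total reads) and those of chromosome 11 above 0 (hsa-miR-100 at 3.29 and 3.89) on either scale.

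HCSCs were next compared with the HCC cells of the same line, which is the comparison the study was designed for. In the Hep3B pair, hsa-miR-99a, hsa-miR-125a-5p and hsa-miR-125b were called higher in Hep3B-C and hsa-miR-100 was called lower, so 3 of 6 members were called higher where 33.0% of 834 miRNAs were, and 1 of 6 lower where 2.52% were. The median log2 fold-change of the 6 members was 0.82, below the 1.45 of all miRNAs tested. In the Huh7 pair, no member was called higher in Huh7-C, where 2.98% of 772 miRNAs were, and 3 of 6 (hsa-miR-100, hsa-miR-125a-5p and hsa-miR-125a-3p) were called lower, where 17.1% were. Here the members' median was -1.03 and that of all miRNAs tested -0.62.

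The member with a lower level in both HCSC libraries on either scale and a call in both pairs per total reads was hsa-miR-100. Per total reads it changed by -1.67 in log2 units between Hep3B and Hep3B-C (-1.84 to -1.50, exact Poisson test, adjusted p = 1.35e-102) and by -1.08 between Huh7 and Huh7-C (-1.13 to -1.02). Per miRNA counts these values were -3.43 and -0.56, of which the second was not called. Relative to the median of miRNAs with at least 10 counts it was lower by 3.09 in the Hep3B pair and by 0.41 in the Huh7 pair, in log2 units. The size of the difference thus stood out in the Hep3B pair, and lay near that of a typical miRNA in the Huh7 pair.

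In the Hep3B pair hsa-miR-99a moved the other way from hsa-miR-100. Its log2 fold-change was 1.84 per total reads (1.67 to 2.02, adjusted p = 3.94e-118) and 0.08 per miRNA counts (-0.09 to 0.25), which was not called. Without any library size, its ratio to hsa-miR-100 went from 0.276 to 3.15, a log2 change of 3.51 (3.27 to 3.75). In the Huh7 pair its change of 0.31 (-0.88 to 1.54) rested on 12 and 15 counts and was not called.

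In Hep3B-C, hsa-miR-125b lay above Hep3B by a log2 fold-change of 2.11 per total reads (1.95 to 2.28, adjusted p = 3.39e-180) and 0.35 per miRNA counts (0.19 to 0.52), and only the former was called. For hsa-miR-125a-5p it was 1.36 per total reads (1.23 to 1.49, adjusted p = 2.21e-102), called higher, but -0.41 per miRNA counts (-0.54 to -0.27), a change of direction. In the Huh7 pair hsa-miR-125a-5p fell on both scales, at -1.71 per total reads (-1.85 to -1.57) and -1.19 per miRNA counts, and it was called on both. Its other arm hsa-miR-125a-3p did the same there, at -1.88 per total reads (-2.54 to -1.26) and -1.36 per miRNA counts. For hsa-miR-125b in the Huh7 pair, -0.97 per total reads (-1.14 to -0.80) missed the fold-change of the call.

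The abundant hsa-miR-99b was not called in either pair per total reads. In the Hep3B pair it had a log2 fold-change of 0.22 (0.20 to 0.24), which turned to -1.54 per miRNA counts (-1.56 to -1.52). In the Huh7 pair it stood at -0.98 (-1.01 to -0.95), and at -0.46 per miRNA counts. Its counting interval in the Hep3B pair thus lay above 0 on one scale and below 0 on the other.

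**Figure D4:**
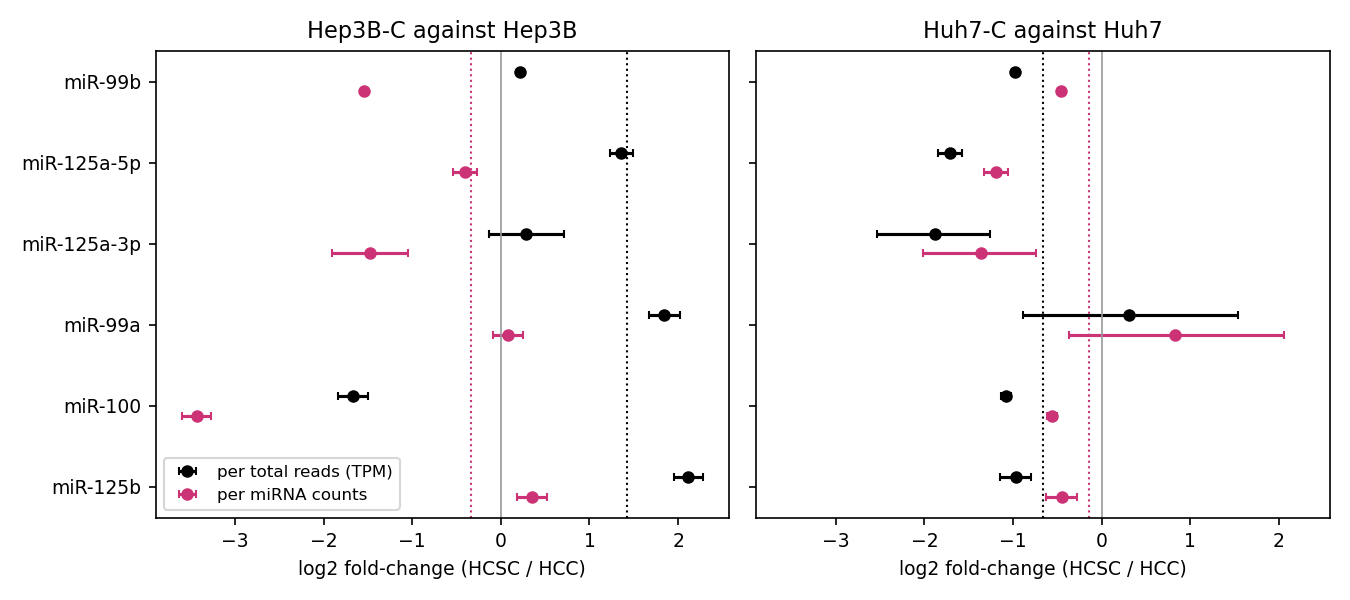
Log2 fold-change of HCSCs over HCC cells for the 6 members in the Hep3B pair (left) and the Huh7 pair (right), per total reads (black) and per miRNA counts (magenta), with 95% exact intervals from the counts. Dotted lines mark the median over all miRNAs with at least 10 counts on the same scale (1.42 and -0.34 on the left, -0.66 and -0.15 on the right); hsa-miR-100 lies left of 0 in both panels on either scale.

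Products of 1 copy were then compared with each other across each pair, by ratios that need no library size. On chromosome 21, the ratio of hsa-miR-99a to hsa-let-7c was 0.0138 in Hep3B and 0.0136 in Hep3B-C, a log2 change of -0.02 (-0.19 to 0.15). The ratio of hsa-miR-125b-2* to hsa-miR-99a was 1.03 and 0.861 in these libraries, a log2 change of -0.26 (-0.50 to -0.02). The ratio of hsa-miR-125b-2* to hsa-let-7c changed by -0.28 (-0.45 to -0.11). Per total reads hsa-miR-99a, hsa-let-7c and hsa-miR-125b-2* were higher in Hep3B-C by 1.84, 1.86 and 1.58 in log2 units. The median of miRNAs with at least 10 counts was 1.42 there, and hsa-let-7a was at 1.52. Changes of this size were thus not particular to this copy. In the Huh7 pair the ratio of hsa-miR-99a to hsa-let-7c changed by -0.40, with an interval from -1.54 to 0.75, so that a change in either direction was not detectable at this depth.

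On chromosome 19, the ratio of hsa-miR-99b to hsa-let-7e was 3.11 in Hep3B and 2.94 in Hep3B-C, against 5.90 in Huh7 and 7.41 in Huh7-C, with a log2 change of -0.08 in the Hep3B pair (-0.12 to -0.04) and 0.33 in the Huh7 pair (0.23 to 0.42). The ratio of hsa-miR-125a-5p to hsa-miR-99b was 0.0176 in Hep3B and 0.0388 in Hep3B-C, against 0.0858 in Huh7 and 0.0518 in Huh7-C. It was higher by 1.14 on the log2 scale in Hep3B-C (1.01 to 1.27) and changed by -0.73 in Huh7-C (-0.87 to -0.59). MIR99B and MIR125A lie in the same host gene, and their mature products did not keep a fixed ratio. The arms of MIR125A also shifted, with a log2 change of -1.07 in the ratio of hsa-miR-125a-3p to hsa-miR-125a-5p in the Hep3B pair (-1.50 to -0.64), while in the Huh7 pair the interval of -0.79 to 0.45 held 0.

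On chromosome 11, hsa-miR-125b-1* stood to hsa-miR-100 as 0.00803 in Huh7 and 0.00800 in Huh7-C, a log2 change of -0.01 (-0.63 to 0.61). In the Hep3B pair 3 counts of hsa-miR-125b-1* in each library were too few for this ratio. The ratio of mature hsa-miR-125b to hsa-miR-100 was 0.101 in Huh7 and 0.109 in Huh7-C, and 0.292 in Hep3B and 4.01 in Hep3B-C. It changed by 0.11 on the log2 scale in the Huh7 pair (-0.07 to 0.28) and by 3.78 in the Hep3B pair (3.55 to 4.01). In the Hep3B pair the ratio of hsa-miR-125b to hsa-miR-99a changed by 0.27 (0.04 to 0.51), from 1.06 to 1.27.

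The partners were counted as lists. Of the 5 partner arms, 2 were called higher per total reads and 0 lower in Hep3B-C, where 33.0% and 2.52% of all miRNAs were. They were hsa-miR-99a* (2.24, and 0.47 per miRNA counts) and hsa-miR-125b-2* (1.58, but -0.18 per miRNA counts), and neither was called higher per miRNA counts. On that scale hsa-miR-99b* was called lower in Hep3B-C at -1.79, while per total reads it was at -0.03. In Huh7-C, 0 partner arms were called higher and 2 lower per total reads, where 2.98% and 17.1% of all miRNAs were. These were hsa-miR-99b* (-1.44, and -0.92 per miRNA counts) and hsa-miR-125b-1* (-1.08, and -0.56 per miRNA counts), which were not called per miRNA counts, whereas hsa-miR-125b-2* (0.91) was then called higher at 1.43. The arm hsa-miR-99a* went from 6 to 26 counts in the Hep3B pair and had 0 and 2 counts in the Huh7 pair, and hsa-miR-100* had 3, 1, 20 and 8 counts in Hep3B, Hep3B-C, Huh7 and Huh7-C. Of the 4 let-7 partners tested, hsa-let-7c (1.86) and hsa-let-7a (1.52) were called higher in the Hep3B pair per total reads, but per miRNA counts they were at 0.10 and -0.25, and were not called. There hsa-let-7e was not called per total reads (0.30) but was called lower per miRNA counts (-1.47). In the Huh7 pair hsa-let-7e was called lower per total reads (-1.31) and not per miRNA counts (-0.79). In that pair hsa-let-7c was not called per total reads (0.70) but was called higher per miRNA counts (1.22). The mature hsa-let-7a is made from several genes besides MIRLET7A2, so it does not report on chromosome 11. The partner arms hsa-let-7e*, with 7 counts in each Hep3B library, and hsa-let-7a-2*, with 0 counts in all 4 libraries, were too low to compare. The name hsa-let-7c* was not among the miRNAs counted.

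A model of all 4 libraries, edgeR's quasi-likelihood test, had the parent line as a block, which takes up any constant difference between the 2 lines. Its spread was therefore how far the difference between HCSCs and HCC cells disagreed between the 2 lines. It was not a spread between cultures of 1 condition. Of 443 miRNAs tested, 0.0% were called at an adjusted p of 0.05 (31 had an unadjusted p under 0.05), and DESeq2 called 5. No member was called by either tool, and none had an unadjusted p under 0.05. In the edgeR fit the log2 fold-changes of HCSCs over HCC cells were -1.69 for hsa-miR-100 (adjusted p = 0.584), -1.11 for hsa-miR-125a-3p (adjusted p = 0.584), -0.70 for hsa-miR-99b (adjusted p = 0.605), -0.50 for hsa-miR-125a-5p (adjusted p = 0.891), 0.25 for hsa-miR-125b (adjusted p = 0.906) and 0.74 for hsa-miR-99a (adjusted p = 0.689). Its estimate of the biological coefficient of variation, 0.546, rested on 1 residual degree of freedom. In fits that had no block, the value of hsa-miR-100 was -1.54 without Hep3B, 0.04 without Hep3B-C, 0.57 without Huh7 and -4.26 without Huh7-C.

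The miRNAs with the pattern nearest to each member were found by the root-mean-square difference of log2 TPM, centred on the mean of the 4 libraries, among 215 miRNAs with a mean of at least 100 counts. These are descriptions over 4 libraries. Nearest to hsa-miR-99a were hsa-miR-143 (0.593) and hsa-miR-125b-2* of its own cluster (0.596), where the median over all miRNAs was 2.75. Nearest to hsa-miR-99b were its own partner arm hsa-miR-99b* (0.184) and hsa-miR-181a-2* (0.284), against a median of 1.25. For hsa-miR-100 they were hsa-miR-27a* (0.684) and hsa-miR-23a (0.758), which come from 1 cluster. Apart from hsa-miR-100, no product made only by the chromosome 11 copy reached the mean of 100 counts. For hsa-miR-125a-5p they were hsa-miR-96 (0.142) and hsa-miR-101 (0.170), and for hsa-miR-125b hsa-miR-2110 (0.234) and hsa-miR-96 (0.274). Between themselves, hsa-miR-125a-5p and hsa-miR-125b differed by 0.412, hsa-miR-99b and hsa-miR-125a-5p by 0.827, and hsa-miR-99a and hsa-miR-100 by 4.48. The nearest of these member pairs thus shared a seed and not a chromosome copy, but so did the farthest, hsa-miR-99a and hsa-miR-100.

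Since hsa-miR-143 is a marker of mesenchymal cells, the list of such markers was read beside hsa-miR-99a. It summed to 35.3 TPM in Hep3B, 115 TPM in Hep3B-C, 11.6 TPM in Huh7 and 2.99 TPM in Huh7-C. Of its 5 miRNAs, 3 had a count in Hep3B and 3 in Hep3B-C, and 4 had one in Huh7 and 4 in Huh7-C. Most of the sum in Hep3B and Hep3B-C was hsa-miR-143 (427 and 1706 counts), while hsa-miR-214 had 0 counts in both and hsa-miR-145 had 0 and 5. Another miRNA of the list, hsa-miR-199a-3p, had 165 counts in Hep3B and 64 in Hep3B-C, the opposite direction. The sum of the list and hsa-miR-99a were both highest in Hep3B-C, and its part in the level of hsa-miR-99a was not tested. Beside hsa-miR-100, which was highest in Huh7, the blood cell list summed to 796 counts there, 773 of them hsa-miR-451, against 1 to 8 counts in the other 3 libraries. Of the rest of that list in Huh7, hsa-miR-142-3p had 20 counts and hsa-miR-142-5p had 3. The other miRNAs of the list, hsa-miR-223, hsa-miR-144 and hsa-miR-150, had 0 counts there. The part of this list was likewise not tested. The neuron list (hsa-miR-9, hsa-miR-124 and hsa-miR-128) also had a higher sum in the Huh7 pair, at 969 and 1084 TPM against 25.4 and 88.0 TPM, and its part was not tested. That sum was mostly hsa-miR-9, while hsa-miR-124 had 0 counts in all 4 libraries and hsa-miR-128 held a smaller share of the miRNA counts in Huh7-C (0.00663%) than in Hep3B-C (0.00948%). The endothelial list summed to between 52.2 and 208 TPM and the muscle list to between 0.953 and 13.0 TPM. In bulk libraries, fewer cells of a type and less RNA per cell cannot be told apart.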

How the data were processed

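Small RNA of Hep3B, Hep3B-C, Huh7 and Huh7-C was sequenced, 1 library each. The authors discarded contaminants and reads under 18 nt, aligned the rest to NCBI Build 36.1 with SOAP, removed other RNA classes and searched miRBase release 17. They deposited raw read counts of 1733 miRNAs per library, with no normalization. Handling of mismatched or multi-mapped reads is not given in the sources used here.

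TPM was computed from these counts and the study's total reads. Libraries were compared by the 2-sided exact Poisson test (Audic and Claverie) over miRNAs with at least 1 count, with the observed count in both tails and 0.001 in place of a TPM of 0. All 4 libraries were fitted by edgeR (TMM, line as block, at least 10 counts in 2 libraries). Intervals on levels (Poisson), shares and fold-changes (Clopper-Pearson) and ratios (Wald) are at 95% and hold counting error only. Medians of lists used 0.5 added counts.

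The members and lists were chosen with earlier results of these data known. Named miRNAs were the members, their partner arms, let-7 partners, hsa-miR-10a and hsa-miR-10b, miRNAs sharing a seed, and the 2 nearest patterns per member. The ratios, and shares other than those of chromosome 19, were chosen after the counts were seen. Alternatives covered library sizes, filters, pseudocounts, an assumed coefficient of variation, DESeq2, and leaving out libraries. Tests were checked on simulated counts with less spread between libraries than the edgeR fit estimated here. How they behave at that spread was not checked. Sequences are from RefSeq (GRCh38.p14) and positions from GENCODE release 29; no coordinates were converted. Python 3.11.15 (scipy 1.17.1), R 4.3.3, edgeR 4.0.16 and DESeq2 1.42.0 were used.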

Additional observations from a re-analysis of the deposited data

Results flagged for a closer look

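In 3 members the HCSCs differed from the HCC cells in opposite directions in the 2 pairs, with a counting interval on each side of 0, and the difference between the pairs was not tested against any spread between cultures. The log2 fold-changes per total reads of Hep3B-C over Hep3B and of Huh7-C over Huh7 were 0.22 and -0.98 for hsa-miR-99b, 1.36 and -1.71 for hsa-miR-125a-5p, and 2.11 and -0.97 for hsa-miR-125b. Per miRNA counts the Hep3B pair gave -1.54, -0.41 and 0.35, so the opposition held on that scale for hsa-miR-125b, whose Huh7 value was -0.45, and not for hsa-miR-99b or hsa-miR-125a-5p.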

How the results depend on the processing

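Library size and an assumed spread between libraries both moved the calls. In the Hep3B pair, 0 members were called higher with total miRNA counts, TMM library sizes, DESeq2 size factors or an assumed coefficient of variation of 0.4, and 3, 3 and 0 were called lower with the first, the second and the last of these. With miRNA counts, TMM and DESeq2 factors in that order, log2 fold-changes reversed to -1.54, -1.20 and -0.96 for hsa-miR-99b, -1.48, -1.13 and -0.89 for hsa-miR-125a-3p, and -1.47, -1.12 and -0.88 for hsa-let-7e. With miRNA counts and TMM, hsa-miR-125a-5p reversed to -0.41 and -0.056, and with miRNA counts alone hsa-miR-125b-2* reversed to -0.18, hsa-let-7a to -0.25 and hsa-miR-10a to -0.16. In the Huh7 pair, hsa-miR-10a reversed to 0.17 with miRNA counts and 0.23 with DESeq2 factors, and 0 members were called lower with the assumed coefficient. Between Huh7 and Hep3B, 0, 1, 1 and 1 members were called higher with miRNA counts, TMM, DESeq2 factors and the assumed coefficient, and 3, 2 and 2 lower with the first 3. There, hsa-miR-125a-3p reversed to -1.54, -0.62 and -0.61 under these 3 scalings, and with miRNA counts hsa-miR-125a-5p reversed to -0.28 and hsa-miR-125b to -0.62. Between Huh7-C and Hep3B-C, 1 member was called lower with the assumed coefficient. Adding partner arms moved the chromosome 19 share of miR-125 to 50.6% in Hep3B and 40.2% in Hep3B-C.

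Without each library in turn, and without the block, the edgeR log2 fold-change ran from -3.81 to 5.35 for hsa-miR-99a, from -1.46 to 0.17 for hsa-miR-99b, from -4.26 to 0.57 for hsa-miR-100 and from -0.31 to 0.62 for hsa-miR-125b. The lone library of a state was there assumed to vary like the others. No member was called in any of these fits. A filter of 10 counts, a pseudocount of 1 TPM and, added after seeing the data, an upper tail without the observed count left the members' counts of calls within 1.5 times. Libraries were paired by parent line through the block, and without it no member was called either. With 12 and 15 counts, the depth limits hsa-miR-99a in the Huh7 pair.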
